A study of Mus musculus with 12 samples.

Results

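The 45 genes described here encode the Wnt ligands, their receptors and co-receptors, their secreted antagonists, and Axin2, a target gene of the pathway. They were chosen by symbol, as every Wnt, Fzd, Sfrp and Dkk gene with a number plus Frzb, Wif1, Lrp5, Lrp6, Axin2, Sost, Ror1 and Ror2, among 19505 named genes on the array. The choice was made with earlier results of these data known. Each was read from 1 transcript cluster, the array's set of probes for a gene. By role they were 19 ligands, 10 frizzled receptors, 4 co-receptors, 11 secreted antagonists and 1 target.

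Wnt ligands are secreted lipid-modified proteins that bind frizzled receptors on nearby cells. When a frizzled receptor engages a ligand together with the co-receptor Lrp5 or Lrp6, beta-catenin escapes destruction and switches on target genes such as Axin2, which feeds back to dampen the signal. Other ligands act without beta-catenin, for example Wnt5a through Ror2, and secreted antagonists hold the pathway in check by binding either the ligands (the Sfrp family, Frzb, Wif1) or Lrp5 and Lrp6 (Dkk1, Sost). In skeletal tissue the pathway is known for its part in bone formation, cartilage maintenance and the ageing of the intervertebral disc.

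RNA came from the nucleus pulposus (NP), the gelatinous core of the disc, and the annulus fibrosus (AF), its fibrous ring. Lumbar discs from L1 to S1 of C57BL/6 mice at 12 months of age were dissected, and the tissue pooled from 1 mouse made 1 sample. TonEBP, a transcription factor encoded by Nfat5, drives the response of cells to hypertonic surroundings; TonEBP +/- mice have lost 1 of their copies of Nfat5, and wild-type (WT) mice carry both. There were 4 groups of 3 samples, NP of TonEBP +/-, NP of WT, AF of TonEBP +/- and AF of WT mice, each sample on 1 Clariom S Mouse array, and the study asks how partial loss of TonEBP bears on the ageing disc. The labels name no tissue-specific driver of the loss. The arrays of a group are numbered in the order of deposit, which pairs no NP sample with an AF sample.

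Values are log2 signals, so a difference of 1 is a doubling, and signals of different probe sets were not compared with each other. Array medians were 6.82 to 6.87 in NP and 7.43 to 7.64 in AF. The spread of signals on an array also differed, with interquartile ranges of 3.61 to 3.80 in NP and 2.36 to 3.11 in AF. Subtracting medians does not remove that difference in spread. Each array holds 23 background probe sets, and a gene counted as above background there if its signal passed their 95th percentile, at 7.11 to 7.33 in NP and 7.73 to 7.98 in AF, as 41.0% to 47.1% of all clusters did. Nfat5 itself read 9.06, 9.62 and 9.09 in NP of TonEBP +/- mice, against 9.12, 8.80 and 8.34 in NP of WT mice, and 8.91, 8.94 and 8.74 in AF of TonEBP +/- mice, against 7.70, 8.69 and 9.93 in AF of WT mice. The genotypes overlapped in both tissues, and neither difference passed the test (NP 0.50, adjusted p = 1; AF 0.09, adjusted p = 0.923). Where its probes lie relative to the lost part of the gene is not given in the sources used here. The NP markers Krt8, Krt18 and Krt19 stood at 15.00 to 17.69 on every NP array, whereas Noto, another gene of that list, averaged 6.96 and 7.69 in NP of TonEBP +/- and WT mice, against 8.07 and 8.33 in AF. Of 8 annulus and tendon markers, Tnmd, Mkx, Scx and Kera were above background on no array, Fmod was above it on all 12, Thbs4 on all 6 AF arrays and 3 NP arrays, Aspn on 4 AF arrays and 1 NP array, and Tagln on all 6 NP arrays and no AF array. Fmod was higher in NP, averaging 18.34 and 18.16 there in TonEBP +/- and WT mice, against 12.54 and 14.65 in AF. AF samples also carried strong signal from myeloid genes: a list of 9 neutrophil and myeloid precursor markers averaged 15.88 to 17.60 over the AF arrays, against 8.99 to 12.98 over the NP arrays. Osteoblast and osteocyte markers averaged 8.80 to 12.06 in AF, against 5.42 to 5.69 in NP. Averages of osteoclast markers were 7.91 to 11.67 and 5.81 to 6.60, and of endothelium markers 7.65 to 9.16 and 4.69 to 5.39. Erythroid markers averaged 11.17 to 11.83 in AF and 6.97 to 9.37 in NP. For cartilage markers the averages were 12.62 to 14.85 and 11.14 to 11.98, with Acan and Sox9 higher in NP. The part of such cells in the tissue differences was not tested.

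Of the 45 genes, 17 were above background on all 3 arrays of at least 1 group, 4 on some arrays only, and 24 on no array. Over the whole array, 11508 of 22206 clusters were above background on all 3 arrays of at least 1 group. Signal on all 3 arrays of both NP groups was found for 11 genes, and on all 3 arrays of both AF groups for 5. The matching shares of all clusters were not counted. By single array, 44.0% to 46.8% of all clusters were above background in NP and 41.0% to 47.1% in AF. By role, 3 of 19 ligands were above background on all 3 arrays of a group, as were 7 of 10 frizzled receptors, 3 of 4 co-receptors, 4 of 11 antagonists and 0 of 1 target. Fzd7 and Lrp6 were above background on all 12 arrays. Wnt4, Wnt16, Fzd2 and Fzd4 were above it on all 6 NP arrays and on no AF array, while Frzb and Wif1 were above it on all 6 AF arrays and on no NP array. The plot of signals by array shows the 19 genes described below one by one.

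**Figure D1:**
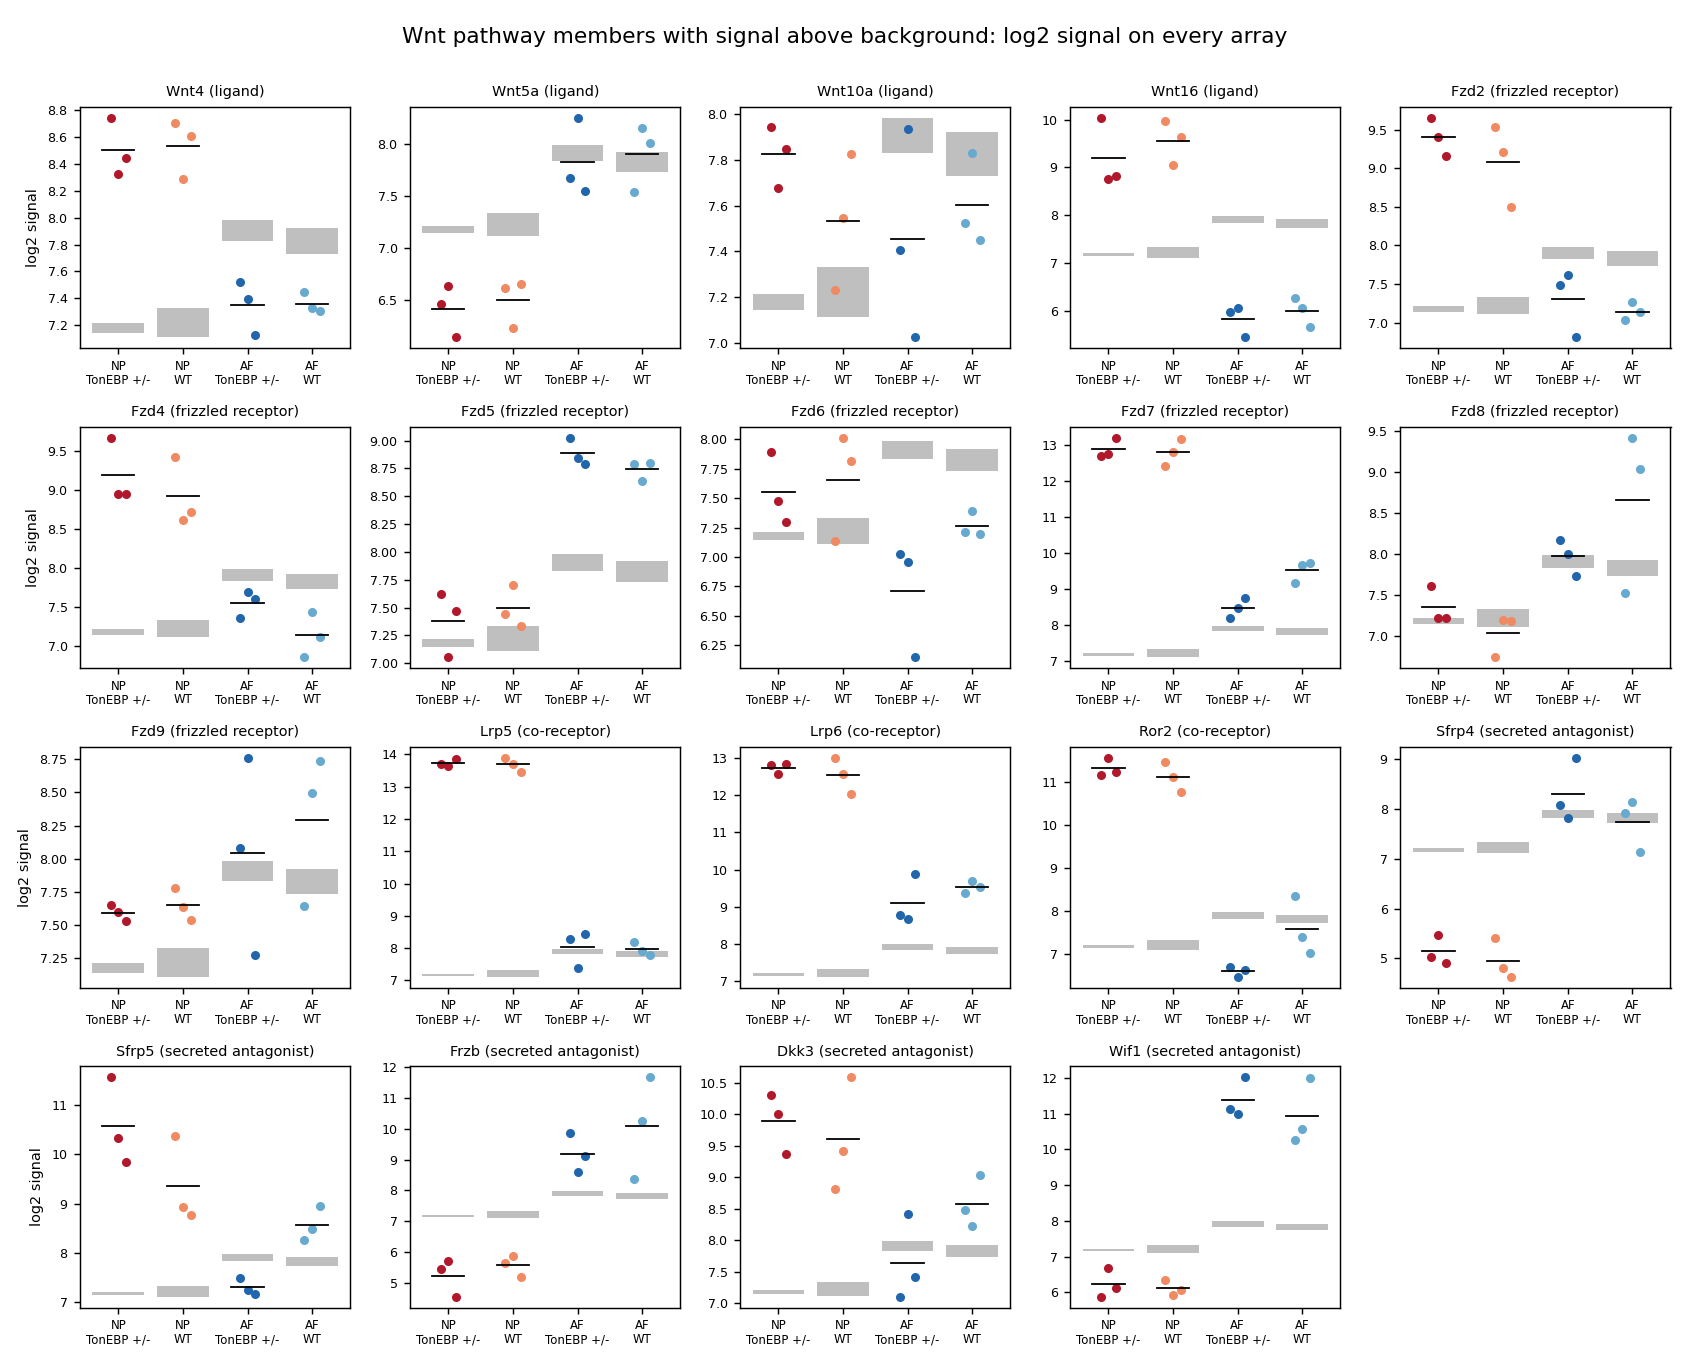
Log2 signal (vertical axis, own scale in each panel) of 19 Wnt pathway genes on every array, with NP TonEBP +/-, NP WT, AF TonEBP +/- and AF WT from left to right; points are arrays, black lines group means, and grey bands the range of the background level over the arrays of that group. Lrp5, Lrp6, Ror2 and Fzd7 sit far above the band in NP, and Frzb and Wif1 sit above it in AF only.

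Sequence just before the start of 4 genes is given because TonEBP binds DNA and these genes carry the results below: Fzd7 was the gene called between genotypes in AF, Ror2 and Sfrp5 came next by adjusted p in AF, and Wnt16 holds the core letters of the TonEBP site. The sequences are from RefSeq, build GRCm38.p6, read 5′ to 3′ on the strand of the gene up to the base before its start. They lie at chr1:59481897-59482146 (Fzd7, plus strand), chr13:53286125-53286374 (Ror2, minus strand), chr19:42202253-42202502 (Sfrp5, minus strand) and chr6:22287977-22288177 (Wnt16, plus strand). The Wnt16 sequence is shorter, at 201 bases, because it stops at the earliest annotated start of the gene. Capitals mark TGGAAA, the core of the tonicity-responsive element bound by TonEBP, and CTTTG, the core bound by the TCF and LEF factors of the pathway, each on either strand.
Fzd7: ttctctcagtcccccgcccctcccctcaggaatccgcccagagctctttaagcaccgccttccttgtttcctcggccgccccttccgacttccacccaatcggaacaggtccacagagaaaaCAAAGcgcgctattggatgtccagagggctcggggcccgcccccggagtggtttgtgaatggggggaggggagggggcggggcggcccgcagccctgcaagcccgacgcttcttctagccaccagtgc
Ror2: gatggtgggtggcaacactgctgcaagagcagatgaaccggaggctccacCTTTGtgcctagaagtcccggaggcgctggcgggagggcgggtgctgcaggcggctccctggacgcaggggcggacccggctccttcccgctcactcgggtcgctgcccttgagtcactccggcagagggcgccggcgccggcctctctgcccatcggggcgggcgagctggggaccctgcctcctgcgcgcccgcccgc
Sfrp5: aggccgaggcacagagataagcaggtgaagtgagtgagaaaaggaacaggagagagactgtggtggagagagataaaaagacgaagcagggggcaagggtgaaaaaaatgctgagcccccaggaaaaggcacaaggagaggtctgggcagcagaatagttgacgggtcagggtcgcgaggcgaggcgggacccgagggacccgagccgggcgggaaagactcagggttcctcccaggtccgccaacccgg
Wnt16: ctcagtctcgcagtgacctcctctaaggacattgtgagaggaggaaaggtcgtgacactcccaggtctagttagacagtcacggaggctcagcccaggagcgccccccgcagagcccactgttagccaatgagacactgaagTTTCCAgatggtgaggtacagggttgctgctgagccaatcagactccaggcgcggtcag
The printed Fzd7 and Ror2 sequences each hold 1 CTTTG core, the Wnt16 sequence holds 1 TGGAAA core, and the Sfrp5 sequence holds neither. For the counts that follow, every window was 250 bases long, that of Wnt16 included. RefSeq windows were matched for 31 of the 45 genes. Members are counted by gene, whereas the shares set beside them are of single windows. TGGAAA on either strand was found in 2 of these 31 (Wnt16 and Wnt5b), against 18.581% of all 32851 windows of 250 bases. CTTTG was found in 15 of 31, against 48.577% of all windows, and the longer TCF and LEF match CTTTGAT, which contains it, in 2 of 31 (Wnt11 and Wnt5b), against 3.205%. These matches describe the letters only.

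Between NP and AF, Wnt4, Wnt16, Fzd2, Fzd4, Fzd7, Lrp5, Lrp6 and Ror2 were higher in NP in both genotypes, and Wif1, Frzb and Sfrp4 were lower. Relative to the array medians, 26 of 45 genes were called in TonEBP +/- mice (13 higher in NP, 13 lower), against 56.2% of all clusters, and 31 of 45 in WT mice (14 higher, 17 lower), against 65% of all clusters, at an adjusted p under 0.05. Taken by direction, 30.9% of all clusters were called higher and 25.3% lower in TonEBP +/- mice, and 33.7% higher and 31.3% lower in WT mice, so the members' shares were near the background. By role, 4 of 10 frizzled receptors were called higher and 2 lower in each genotype, 3 of 4 co-receptors higher and 1 lower in each, 2 of 11 antagonists higher and 6 lower in TonEBP +/- mice and 2 higher and 7 lower in WT mice, and 4 of 19 ligands higher and 3 lower in TonEBP +/- mice and 5 higher and 6 lower in WT mice. The median difference of the 45 genes was -0.18 in TonEBP +/- mice and -0.38 in WT mice, against -0.06 and -0.10 over all clusters. On the values as deposited, without the array medians subtracted, the calls were 11 higher and 27 lower in TonEBP +/- mice and 9 higher and 27 lower in WT mice, so a direction is stated below only where it holds on both scales. Many of the lower calls concern genes whose signal was at background in both tissues, and for these no size is given. Where a gene was at background on some or all arrays of its dimmer group, its difference between the tissues is given as a bound. Each array of that group then counted at the higher of its background level and the gene's signal, and the smaller bound of the 2 scales is given. These bounds cover those 2 scales only. Over the alternatives that left out no single array, the lowest fitted differences in TonEBP +/- and WT mice were 5.54 and 5.61 for Lrp5. For Fzd7 they were 4.15 and 2.72, and for Lrp6 3.34 and 2.44. In such bulk tissue, fewer cells of a type and less RNA per cell cannot be told apart. The plot of NP minus AF differences shows both genotypes.

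**Figure D2:**
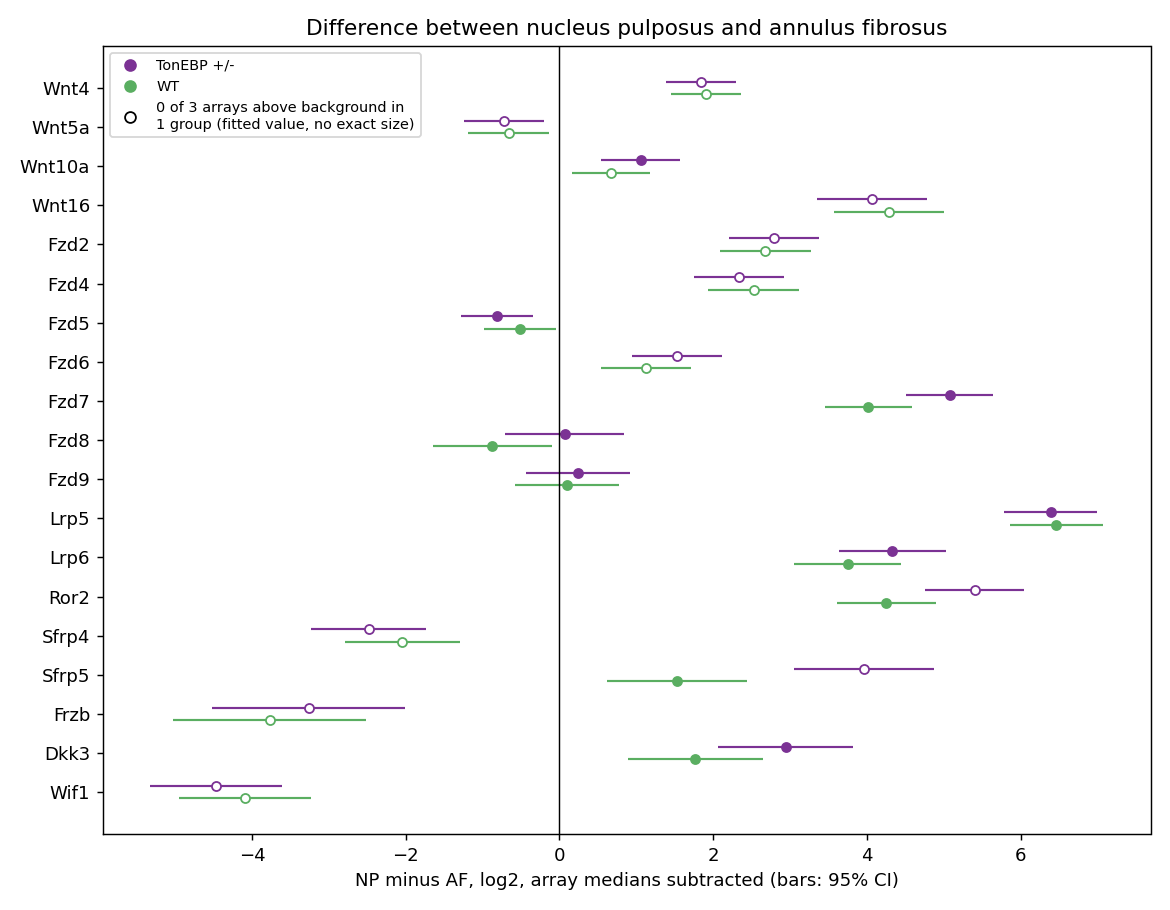
NP minus AF difference (horizontal axis, log2, array medians subtracted) of the 19 genes in TonEBP +/- mice (purple) and WT mice (green); bars are 95% confidence intervals of the limma fit, and open points have 1 group with 0 of 3 arrays above background. Lrp5 lies to the right at fitted values of 6.39 and 6.47, and Wif1 and Frzb lie to the left as open points.

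Among the ligands, Wnt16, known from joints and from the maintenance of cortical bone, was an NP transcript. Its signal was 10.03, 8.76 and 8.81 in NP of TonEBP +/- mice and 9.97, 9.04 and 9.64 in NP of WT mice, against 5.97, 6.06 and 5.44 in AF of TonEBP +/- mice and 6.27, 6.05 and 5.67 in AF of WT mice. Every NP array was above every AF array, and no AF array was above background. NP was higher by at least 1.29 in TonEBP +/- mice, at least 2.45-fold, and by at least 1.72 in WT mice, at least 3.29-fold (adjusted p = 4.79e-08 and 3.23e-08). Wnt4, a ligand with known roles in kidney, gonad and cartilage development, was likewise above background in NP only. It read 8.74, 8.32 and 8.44 in NP of TonEBP +/- mice and 8.70, 8.29 and 8.60 in NP of WT mice, against 7.52, 7.39 and 7.13 in AF of TonEBP +/- mice and 7.45, 7.33 and 7.30 in AF of WT mice. The tissues did not overlap, and the difference was at least 0.59 in TonEBP +/- mice and at least 0.70 in WT mice (adjusted p = 2.26e-06 and 1.78e-06).

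Wnt5a, the best known ligand of the branch without beta-catenin, was an AF transcript near the background level. Its signal was 6.45, 6.64 and 6.14 in NP of TonEBP +/- mice and 6.61, 6.23 and 6.65 in NP of WT mice, against 7.67, 8.25 and 7.54 in AF of TonEBP +/- mice and 7.53, 8.16 and 8.01 in AF of WT mice. All AF arrays were higher than all NP arrays, but only 1 array of AF TonEBP +/- and 2 of AF WT were above background, so no size is given for the lower NP signal (adjusted p = 0.0213 in TonEBP +/- mice and 0.0284 in WT mice). These calls were lost in 2 of 17 alternatives in TonEBP +/- mice and 3 of 17 in WT mice, each leaving out 1 array. Wnt10a, a ligand of teeth and skin appendages, read 7.95, 7.68 and 7.85 in NP of TonEBP +/- mice and 7.23, 7.54 and 7.83 in NP of WT mice, against 7.41, 7.94 and 7.02 in AF of TonEBP +/- mice and 7.52, 7.83 and 7.45 in AF of WT mice. Its tissues overlapped in both genotypes, and its difference changed sign with the scale in WT mice, being 0.67 relative to the array medians and -0.07 as deposited. Wnt7a was above background on AF WT array 1 only, at 7.83. The other ligands, Wnt1, Wnt2, Wnt2b, Wnt3, Wnt3a, Wnt5b, Wnt6, Wnt7b, Wnt8a, Wnt8b, Wnt9a, Wnt9b, Wnt10b and Wnt11, were above background on no array, with signals of 3.23 to 7.32.

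Fzd7, a frizzled receptor found on many stem and progenitor cells, was higher in NP in both genotypes. It read 12.68, 12.73 and 13.19 in NP of TonEBP +/- mice and 12.41, 12.81 and 13.17 in NP of WT mice, against 8.20, 8.48 and 8.76 in AF of TonEBP +/- mice and 9.17, 9.66 and 9.71 in AF of WT mice. All arrays were above background, and the NP arrays lay far above the AF arrays. Relative to the array medians, the difference was 5.08 (SE 0.266, 33.8-fold, adjusted p = 3.37e-10) in TonEBP +/- mice and 4.02 (SE 0.266, 16.2-fold, adjusted p = 5.16e-09) in WT mice. As deposited it was smaller, at 4.39 (20.9-fold) and 3.28 (9.71-fold).

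Fzd2 and Fzd4 (Fzd4 is also the receptor of Norrin in retinal vessels) were above background in NP only. Fzd2 read 9.65, 9.41 and 9.16 in NP of TonEBP +/- mice and 9.54, 9.21 and 8.49 in NP of WT mice, against 7.49, 7.62 and 6.81 in AF of TonEBP +/- mice and 7.03, 7.27 and 7.13 in AF of WT mice. Fzd4 read 9.67, 8.96 and 8.95 in NP of TonEBP +/- mice and 9.43, 8.61 and 8.71 in NP of WT mice, against 7.36, 7.69 and 7.60 in AF of TonEBP +/- mice and 6.86, 7.43 and 7.11 in AF of WT mice. Neither gene overlapped between the tissues. Fzd2 was at least 2.82-fold higher in NP of TonEBP +/- mice and at least 2.37-fold higher in NP of WT mice (adjusted p = 3.82e-07 and 7.33e-07). Fzd4 was at least 2.44-fold higher in TonEBP +/- mice and at least 2.12-fold higher in WT mice (adjusted p = 2.66e-06 and 1.32e-06).

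Fzd5, a receptor known from gut and eye, gave lower signals on every NP array than on any AF array. It read 7.62, 7.06 and 7.47 in NP of TonEBP +/- mice and 7.44, 7.71 and 7.33 in NP of WT mice, against 9.03, 8.84 and 8.79 in AF of TonEBP +/- mice and 8.79, 8.64 and 8.80 in AF of WT mice. Relative to the array medians the fitted difference was -0.81 (SE 0.220, adjusted p = 0.00522) in TonEBP +/- mice, at least 1.71-fold lower with 2 of 3 NP arrays above background, and in WT mice it was -0.51 (SE 0.220, adjusted p = 0.0528), which did not pass. As deposited it was -1.25 in WT mice and passed (adjusted p = 9.64e-05).

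Fzd6, Fzd8 and Fzd9 lay close to background, and none gave a call that held on both scales in both genotypes. Fzd6, which orients hairs on the skin, read 7.89, 7.47 and 7.30 in NP of TonEBP +/- mice and 7.13, 8.01 and 7.82 in NP of WT mice, against 7.03, 6.96 and 6.15 in AF of TonEBP +/- mice and 7.21, 7.39 and 7.19 in AF of WT mice. It was higher in NP of TonEBP +/- mice on both scales (adjusted p = 0.000201), but too near background for a bound. In WT mice its tissues overlapped, and its call was lost as deposited (0.39, adjusted p = 0.223). Fzd8 read 7.61, 7.21 and 7.22 in NP of TonEBP +/- mice and 6.74, 7.19 and 7.18 in NP of WT mice, against 8.17, 8.00 and 7.73 in AF of TonEBP +/- mice and 7.52, 9.41 and 9.03 in AF of WT mice. These NP signals lay below the AF signals in each genotype, and relative to the array medians the fitted difference was 0.07 (adjusted p = 0.885) in TonEBP +/- mice and -0.87 (adjusted p = 0.0452) in WT mice. The WT call also held as deposited, and with 1 of 3 NP arrays of WT mice above background Fzd8 was at least 1.59-fold lower there. This call was fragile: it was lost in 10 of 18 alternatives, 9 of which left out 1 array, with adjusted p up to 0.239. AF WT array 1, at 7.52, was below background. Fzd9, a receptor of bone-forming cells, read 7.65, 7.60 and 7.53 in NP of TonEBP +/- mice and 7.78, 7.63 and 7.54 in NP of WT mice, against 8.08, 8.76 and 7.28 in AF of TonEBP +/- mice and 7.64, 8.49 and 8.73 in AF of WT mice. Its tissues overlapped, and neither difference passed (adjusted p = 0.530 and 0.791). Fzd1, Fzd3 and Fzd10 were above background on no array, at 5.06 to 7.54.

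Of the co-receptors, Lrp5, Lrp6 and Ror2 were higher in NP. Lrp5, whose loss lowers bone mass, read 13.70, 13.65 and 13.86 in NP of TonEBP +/- mice and 13.90, 13.71 and 13.46 in NP of WT mice, against 8.30, 7.38 and 8.43 in AF of TonEBP +/- mice and 8.19, 7.90 and 7.79 in AF of WT mice. Only 2 arrays of AF TonEBP +/- and 1 of AF WT were above background. On the 2 scales, NP was higher by at least 5.55 in TonEBP +/- mice, at least 46.9-fold, and by at least 5.70 in WT mice, at least 52.0-fold (adjusted p = 5.87e-11 and 1.03e-10).

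Lrp6, the close relative of Lrp5 with broader roles in development, read 12.82, 12.57 and 12.84 in NP of TonEBP +/- mice and 13.01, 12.56 and 12.03 in NP of WT mice, against 8.77, 8.68 and 9.87 in AF of TonEBP +/- mice and 9.36, 9.69 and 9.53 in AF of WT mice. The tissues were apart on every array. Relative to the array medians, NP was higher by 4.33 (SE 0.328, 20.1-fold, adjusted p = 1.86e-08) in TonEBP +/- mice and by 3.75 (SE 0.328, 13.5-fold, adjusted p = 1.15e-07) in WT mice. As deposited the differences were smaller, at 3.64 (12.5-fold) and 3.01 (8.06-fold).

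Ror2, the receptor tyrosine kinase for Wnt5a that is needed for skeletal growth, read 11.16, 11.56 and 11.24 in NP of TonEBP +/- mice and 11.46, 11.12 and 10.76 in NP of WT mice, against 6.70, 6.48 and 6.64 in AF of TonEBP +/- mice and 8.35, 7.41 and 7.03 in AF of WT mice. Of the AF arrays only WT array 1 was above background. NP was higher by at least 3.41 (at least 10.6-fold, adjusted p = 7.33e-10) in TonEBP +/- mice and by at least 3.07 (at least 8.41-fold, adjusted p = 1.22e-08) in WT mice. Ror1 was above background on no array, at 5.61 to 7.72. Ror2 thus had its signal in NP, and Wnt5a came above background on AF arrays only.

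The secreted antagonists divided between the tissues. Wif1, which binds Wnt ligands outside the cell, was above background in AF only. It read 5.88, 6.67 and 6.13 in NP of TonEBP +/- mice and 6.36, 5.92 and 6.06 in NP of WT mice, against 11.13, 10.99 and 12.01 in AF of TonEBP +/- mice and 10.25, 10.58 and 11.99 in AF of WT mice. Frzb, an antagonist first known from articular cartilage, read 5.45, 5.70 and 4.56 in NP of TonEBP +/- mice and 5.66, 5.87 and 5.20 in NP of WT mice, against 9.85, 8.60 and 9.11 in AF of TonEBP +/- mice and 8.36, 10.24 and 11.66 in AF of WT mice. Both were below background on all NP arrays and above it on all AF arrays. Wif1 was lower in NP by at least 11.4-fold in TonEBP +/- mice and at least 7.91-fold in WT mice (adjusted p = 1.34e-07 and 4.33e-07), and Frzb by at least 2.49-fold and at least 4.37-fold (adjusted p = 0.000214 and 5.23e-05). Frzb spread widely over the AF arrays of WT mice, with an SD of 1.66 log2.

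Sfrp4, an antagonist that bone cells need for normal cortical thickness, lay near background in AF. It read 5.04, 5.48 and 4.92 in NP of TonEBP +/- mice and 5.42, 4.82 and 4.63 in NP of WT mice, against 8.08, 7.82 and 9.04 in AF of TonEBP +/- mice and 7.91, 8.15 and 7.15 in AF of WT mice. The NP arrays were the lower ones throughout, by at least 1.36-fold in TonEBP +/- mice (adjusted p = 1.9e-05), and in WT mice the AF mean was too near background for a bound (adjusted p = 0.000127).

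Sfrp5 and Dkk3 were the antagonists that stood higher in NP. Sfrp5, which blocks ligands including Wnt5a, read 11.56, 10.33 and 9.84 in NP of TonEBP +/- mice and 10.37, 8.93 and 8.77 in NP of WT mice, against 7.49, 7.25 and 7.17 in AF of TonEBP +/- mice and 8.26, 8.49 and 8.96 in AF of WT mice. The tissues were far apart in TonEBP +/- mice, by at least 2.67 (at least 6.37-fold, adjusted p = 9.76e-07), and overlapped in WT mice, where the difference of 1.53 (SE 0.429, adjusted p = 0.00571) was lost on the values as deposited (0.79, adjusted p = 0.0998). Dkk3, a divergent member of its family whose receptor is not settled, read 10.31, 10.01 and 9.36 in NP of TonEBP +/- mice and 8.82, 9.42 and 10.58 in NP of WT mice, against 7.10, 8.41 and 7.41 in AF of TonEBP +/- mice and 8.48, 8.23 and 9.03 in AF of WT mice. In AF of TonEBP +/- mice 1 of 3 arrays was above background. Dkk3 was higher in NP by at least 1.79 (adjusted p = 1.72e-05) in TonEBP +/- mice, with no overlap, and by 1.77 (SE 0.414, adjusted p = 0.0016) in WT mice, with overlap. The WT difference was 1.03 as deposited.

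The remaining antagonists gave no usable signal. Sfrp2 was above background on AF WT array 1 only, at 7.84. Sfrp1, Dkk1, Dkk2, Dkk4 and Sost were above background on no array, at 3.12 to 7.70. Sost, the osteocyte product sclerostin, read 6.87, 6.74 and 6.87 in AF of TonEBP +/- mice, against 6.56, 7.27 and 7.70 in AF of WT mice. Axin2 was also above background on no array, at 4.56 to 6.94, so no level is given for this target.

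Few of these genes differed between the genotypes. In AF, 1 of 45 genes was called, or 2.22%, against 6.07% of all clusters (2.76% higher and 3.31% lower), and 7 of 45 reached an unadjusted p under 0.05. In NP 0 of 45 were called, against 0.113% of all clusters, and 1 reached an unadjusted p under 0.05 in the limma fit. The median change of the 45 genes was -0.16 in AF and 0.02 in NP, against -0.04 and 0.01 over all clusters. The plot of genotype differences shows all 45 genes in both tissues.

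**Figure D3:**
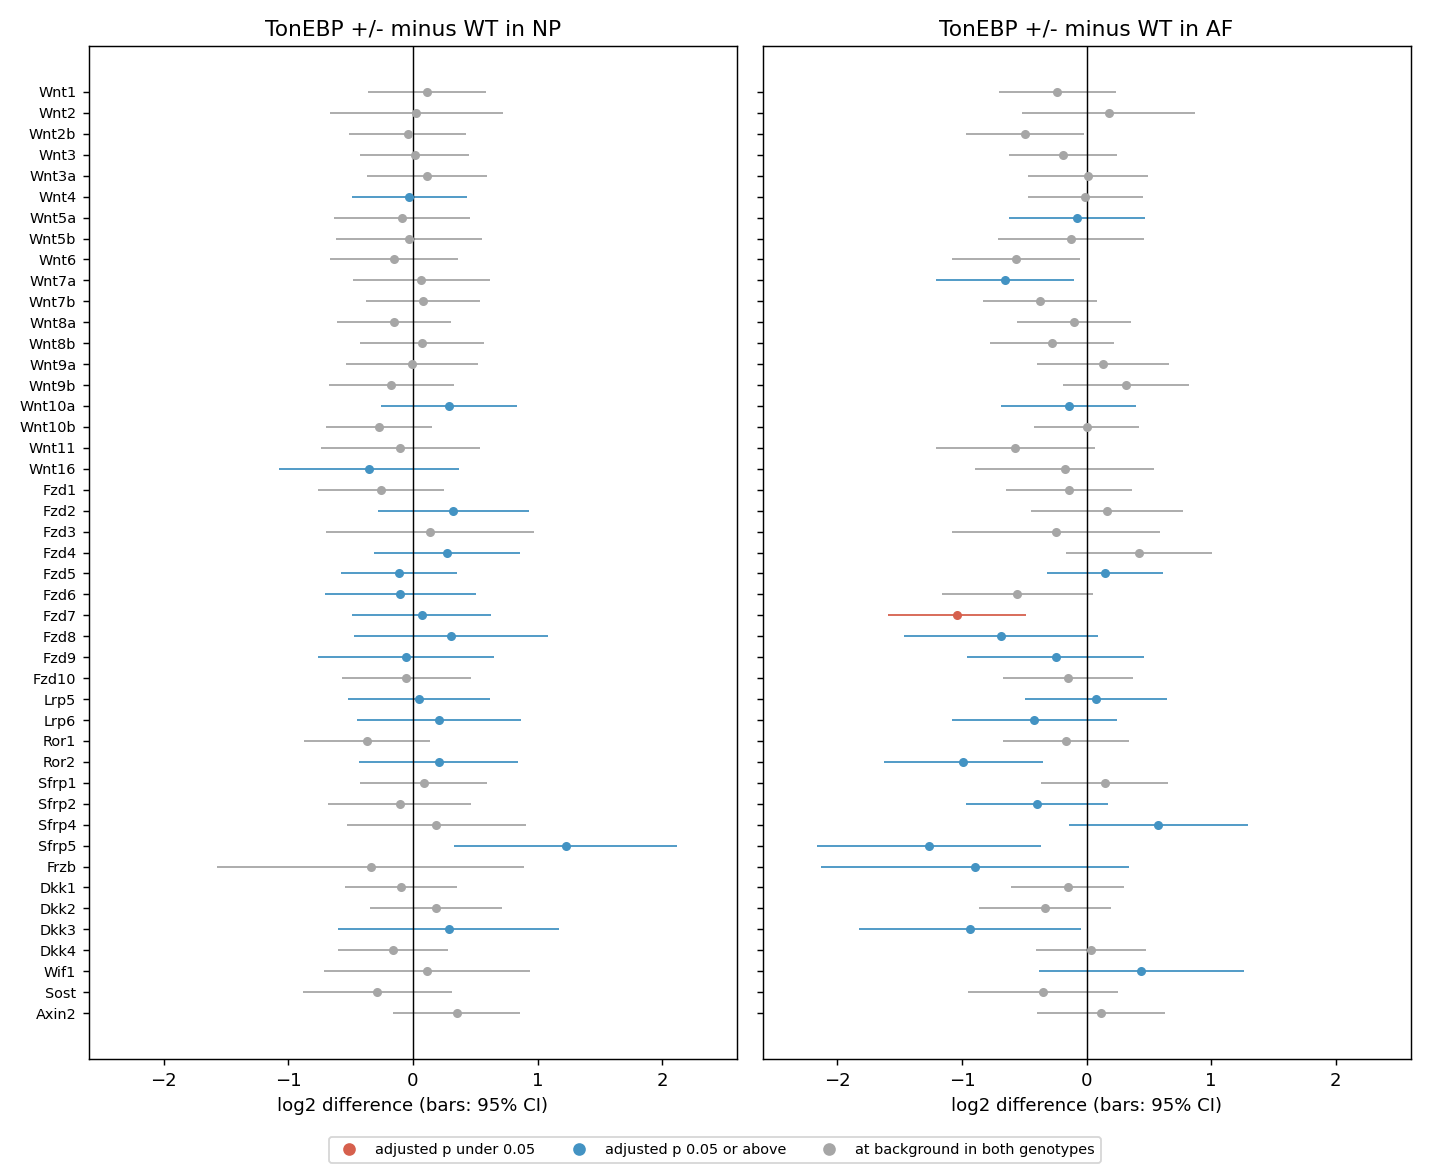
TonEBP +/- minus WT difference (horizontal axis, log2) of all 45 genes in NP (left) and AF (right); bars are 95% confidence intervals of the limma fit, grey marks genes above background on no array of either genotype, and red an adjusted p under 0.05. Fzd7 in AF, at -1.04, is the red point, and Sfrp5 lies right of 0 in NP and left of it in AF.

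Fzd7 fell in AF of TonEBP +/- mice. Its signals of 8.20, 8.48 and 8.76 there, against 9.17, 9.66 and 9.71 in AF of WT mice, did not overlap and were all above background. The difference was -1.04 (SE 0.262, 95% confidence interval -1.59 to -0.48, 2.05-fold lower, adjusted p = 0.0324). In NP the difference of Fzd7 was 0.07 (95% confidence interval -0.49 to 0.63, adjusted p = 1). The interaction, the NP difference minus the AF difference, was 1.11 (SE 0.370) and did not pass (adjusted p = 0.172). The call rested on few arrays: fitted to the 6 AF arrays alone its adjusted p was 0.119. Without AF TonEBP +/- array 1 the difference was -0.90 (adjusted p = 0.106), without array 3 -1.18 (adjusted p = 0.0751), without AF WT array 2 -0.97 (adjusted p = 0.107) and without AF WT array 3 -0.94 (adjusted p = 0.0900).

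Ror2 read 6.70, 6.48 and 6.64 in AF of TonEBP +/- mice, against 8.35, 7.41 and 7.03 in AF of WT mice, without overlap. Its fitted difference of -0.99 did not pass (adjusted p = 0.0613), and since it was above background on AF WT array 1 only, no size is given. Without AF WT array 1 the fitted difference was -0.61 (adjusted p = 0.222), and without AF WT array 3 it was -1.27 and passed (adjusted p = 0.0464). In NP the difference of Ror2 was 0.21 (SE 0.300, adjusted p = 1).

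Sfrp5 had opposite signs in the tissues, and neither difference passed. In NP it read 11.56, 10.33 and 9.84 in TonEBP +/- mice, against 10.37, 8.93 and 8.77 in WT mice, a difference of 1.23 (SE 0.424, 2.34-fold, adjusted p = 0.844). In AF it read 7.49, 7.25 and 7.17 in TonEBP +/- mice, all below background, against 8.26, 8.49 and 8.96 in WT mice, all above it. The groups overlapped in NP and did not in AF, where the difference was at or below -0.66 (adjusted p = 0.0850). The interaction of 2.49 (SE 0.599) did not pass either (adjusted p = 0.0632). For the interaction 0 of 45 genes were called in the limma fit, against 0.887% of all clusters (0.122% higher and 0.766% lower), and 3 (Fzd7, Ror2 and Sfrp5) reached an unadjusted p under 0.05.

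The differences of the other antagonists in AF did not pass. Dkk3 read 7.10, 8.41 and 7.41 in AF of TonEBP +/- mice, against 8.48, 8.23 and 9.03 in AF of WT mice, with overlap (-0.94, SE 0.419, adjusted p = 0.191). Frzb differed by -0.90 (SE 0.582, adjusted p = 0.380), Wif1 by 0.44 (SE 0.388, adjusted p = 0.536) and Sfrp4 by 0.58 (SE 0.339, adjusted p = 0.331), all with overlapping groups. Lrp5 differed by 0.07 in AF (95% confidence interval -0.49 to 0.64) and by 0.05 in NP (95% confidence interval -0.52 to 0.62). For Lrp6 the differences were -0.42 in AF (95% confidence interval -1.08 to 0.24) and 0.21 in NP (95% confidence interval -0.45 to 0.87). The NP ligands Wnt4 and Wnt16 differed in NP by -0.03 (95% confidence interval -0.49 to 0.43) and -0.35 (95% confidence interval -1.07 to 0.37).

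Markers of other cells moved in AF beside Fzd7, Ror2 and Sfrp5, all of which stood far higher in NP than in AF in at least 1 genotype. A list of 8 measured NP and notochord markers averaged 9.04 to 9.51 over the AF arrays of TonEBP +/- mice, against 9.58 to 11.12 over those of WT mice, and 2 against 6 of them were above background on all 3 arrays. Among them Krt19 fell in AF by 2.19 on the log2 scale (adjusted p = 0.0476), and Foxa2 was above background on no array. AF WT array 1 had the highest Krt8, Krt18 and Krt19 of the AF arrays (10.34, 8.93 and 11.37) and the highest Ror2. Its Fzd7 and Sfrp5 were the lowest of the WT group. Without this array the fitted differences were -1.21 for Fzd7 (adjusted p = 0.0414), -1.42 for Sfrp5 (adjusted p = 0.115) and -0.61 for Ror2 (adjusted p = 0.222). In the counts that follow, rose and fell mean called at an adjusted p under 0.05. Of all clusters, 2.76% were called higher and 3.31% lower. Of 8 osteoblast and osteocyte markers 7 rose, with list averages of 11.28 to 12.06 in AF of TonEBP +/- mice, against 8.80 to 10.23 in AF of WT mice. Of 9 neutrophil and myeloid precursor markers 3 rose (16.92 to 17.60, against 15.88 to 16.40), and of 8 cartilage markers 2 fell (12.62 to 13.64, against 13.05 to 14.85). Of 7 osteoclast markers 3 rose (10.40 to 11.67, against 7.91 to 9.75), of 6 endothelium markers 1, Kdr, rose (8.18 to 9.16, against 7.65 to 8.29), and of 8 annulus and tendon markers 2, Fmod and Aspn, fell (7.03 to 7.35, against 7.67 to 8.08). Of these 2, Fmod stood higher in NP than in AF in both genotypes. Called or not, the AF difference was positive for 8 of 8 osteoblast and osteocyte, 9 of 9 myeloid, 6 of 7 osteoclast and 5 of 6 endothelium markers. It was positive for 1 of 8 cartilage, 0 of 8 annulus and tendon and 0 of 8 NP and notochord markers. In NP the myeloid list averaged 8.99 to 10.67 in TonEBP +/- mice, against 11.48 to 12.98 in WT mice. The part of these cells in the results was not tested. The plot of AF signals sets Fzd7, Ror2 and Sfrp5 beside the NP keratins.

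**Figure D4:**
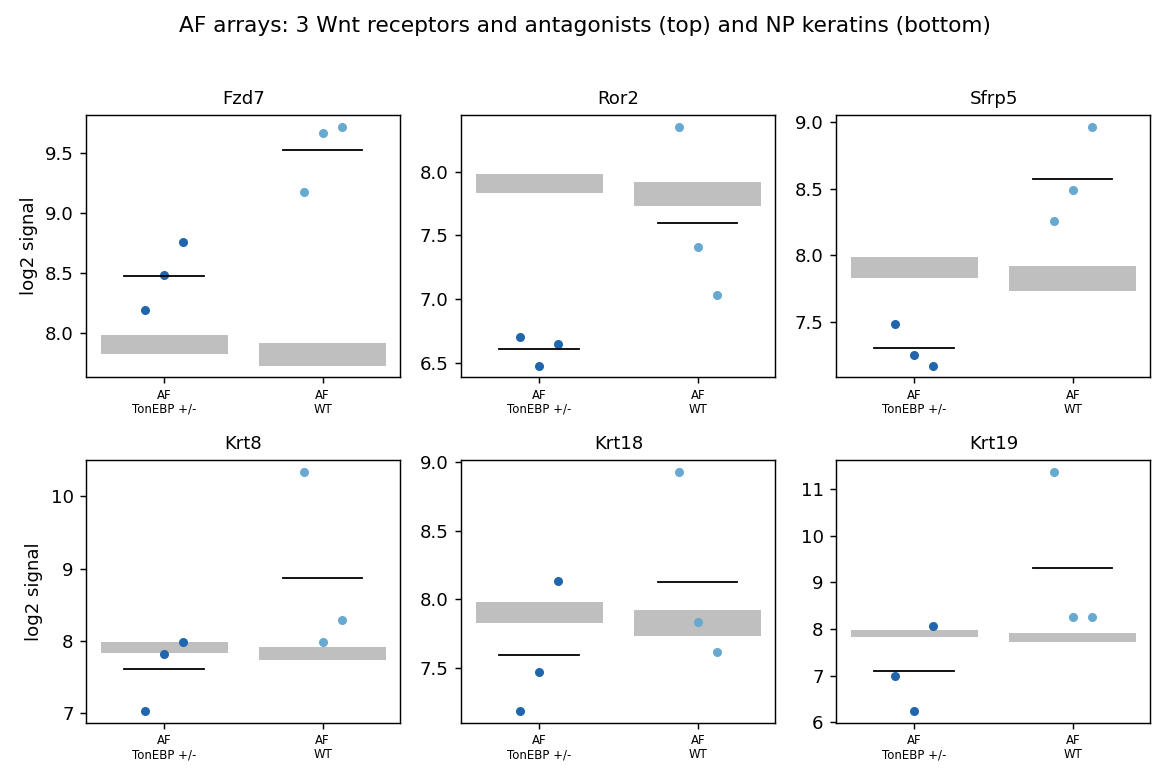
Log2 signal (vertical axis, own scale in each panel) of Fzd7, Ror2 and Sfrp5 (top) and the NP keratins Krt8, Krt18 and Krt19 (bottom) on the AF arrays of TonEBP +/- (left) and WT (right) mice; points are arrays, black lines group means, and grey bands the range of the background level over the arrays. The groups of Fzd7, Ror2 and Sfrp5 do not overlap, and AF WT array 1, the leftmost WT point, is the highest in all 3 keratin panels.

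The rest of the pathway was followed in 4 lists, of which 60 of 65 genes were measured. Between NP and AF, 25 were called higher and 14 lower in TonEBP +/- mice, and 24 higher and 17 lower in WT mice. That is 65.0% of the 60 in TonEBP +/- mice, against 56.2% of all clusters (30.9% higher and 25.3% lower), and 68.3% in WT mice, against 65% of all clusters (33.7% higher and 31.3% lower). Their median difference was 0.45 in TonEBP +/- mice and 0.24 in WT mice. On both scales and above background, 20 were higher and 5 lower in TonEBP +/- mice, and 20 higher and 6 lower in WT mice. Relative to the array medians, 24 of 40 genes above background in TonEBP +/- mice were called higher and 5 lower. Of all clusters above background there, 47.1% were called higher and 21.8% lower. In WT mice 24 of 38 such genes were called higher and 6 lower, against 50.9% and 26.6% of all such clusters. Above background here means on at least 1 array of the groups compared. Among 12 genes of ligand secretion and extracellular control, Sostdc1, a secreted antagonist of both Wnt and BMP signals, was higher in NP by 6.19 in TonEBP +/- mice and 5.41 in WT mice. Wls, the carrier that brings Wnt ligands to the cell surface, was higher by 2.66 and 3.10, and Gpc4, a cell surface proteoglycan that binds Wnt ligands, by at least 3.43 and at least 3.47. As deposited, Sostdc1 was higher by 5.50 and 4.67 and Wls by 1.97 and 2.36. Porcn, the enzyme that attaches the lipid to Wnt ligands, was lower in NP of WT mice (difference -0.64, adjusted p = 0.0150).

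Among 11 other surface components, Ryk, a Wnt receptor with an inactive kinase domain, was higher in NP by 3.52 in TonEBP +/- mice and 3.40 in WT mice, and Lgr4, a receptor for R-spondins, by 3.19 and 2.68. Of this list, 6 genes above background were called higher in WT mice and 2, Lgr6 and Lgr5, lower. In TonEBP +/- mice 5 were called higher and 0 lower. Lgr6 and Lgr5 were above background on all 3 AF arrays and 0 NP arrays of WT mice. They were lower in NP there by at least 1.34-fold and at least 1.54-fold (adjusted p = 1.08e-06 and 0.0068), with no bound in TonEBP +/- mice. On the values as deposited, Ryk was higher by 2.83 and 2.66 and Lgr4 by 2.50 and 1.94. Over the alternatives that left out no single array, their lowest WT differences were 1.84 and 1.40. Among 25 cytoplasmic and nuclear components, Tcf7l2, a DNA-binding partner of beta-catenin, was higher by 3.92 and 3.62. Csnk1a1, a kinase that marks beta-catenin for destruction, was higher by 3.03 and 3.65. Their differences as deposited were 3.23 and 2.88 for Tcf7l2 and 2.34 and 2.91 for Csnk1a1. Of 12 known target genes, Tnfrsf11b, which encodes osteoprotegerin, was higher in NP by 6.29 and 4.61, and Ccn5 by 2.71 and 2.31. As deposited these were 5.60 and 3.87 for Tnfrsf11b and 2.02 and 1.57 for Ccn5. Cd44 differed by -3.89 and -1.52 and Myc by -1.76 and -1.12, both lower in NP. The Myc call in WT mice (adjusted p = 0.0297) was lost in 4 of 18 alternatives, each leaving out 1 array, with adjusted p up to 0.145. Nkd1, Nkd2, Sp5, Apcdd1, Ccn4, Cdx2 and Twist1, like Axin2 and Lef1, were above background on no array. Several of these targets, Cd44 and Myc among them, are also controlled by other pathways.

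Between genotypes, 2 of the 60 pathway genes were called in AF, or 3.33%, against 6.07% of all clusters, and 0 in NP, against 0.113% of all clusters. In the limma fit 11 reached an unadjusted p under 0.05 in AF and 1 in NP. Lgr6, a receptor for R-spondins, read 7.12, 6.99 and 6.28 in AF of TonEBP +/- mice, all below background, against 7.99, 8.50 and 8.64 in AF of WT mice, all above it, and was lower by at least 1.38-fold (adjusted p = 0.0106). Cd44, the hyaluronan receptor, which leukocytes also carry, read 14.96, 14.21 and 15.46 in AF of TonEBP +/- mice, against 13.75, 12.13 and 12.88 in AF of WT mice, and was higher by 1.96 (SE 0.397, 3.89-fold, adjusted p = 0.0177). The groups of both genes did not overlap. Tnfrsf11b differed by -1.09 in AF (SE 0.328, adjusted p = 0.0595), with overlap, and by 0.64 in NP (SE 0.328, adjusted p = 1). For the interaction 0 of 60 were called in the limma fit, against 0.887% of all clusters, and 8 reached an unadjusted p under 0.05.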

How the data were processed

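Per the labels' protocols, total RNA was purified on RNeasy Mini columns and its biotin-labelled cDNA (GeneChip WT Plus) was measured on Clariom S Mouse arrays. The deposited values are log2 signals that the authors made with RMA in Affymetrix Expression Console, per the submitters' processing notes. RMA corrects background, equalizes signal distributions and summarizes probes. Which arrays were normalized together is not given in the sources used here. Of 28846 probe sets, 6640 controls were left out and 22206 transcript clusters were tested.

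The fits used R 4.3.3 with limma 3.58.1, and figures Python 3.11.15 with matplotlib 3.10.9. A mean for each of 4 groups was fitted to all 12 arrays (8 residual degrees of freedom) with eBayes without a trend, two-sided, adjusted by Benjamini-Hochberg over all clusters and called at an adjusted p under 0.05. Genotype effects and the interaction used the values as deposited. NP against AF used values with each array's median subtracted. A cluster was above background on an array past the 95th percentile of 23 background probe sets. The number of arrays limits the precision. The fit was tested on simulated data.

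Genes above background on all 3 arrays of a group, or called while above it on at least 2, are given array by array. Between genotypes, pathway genes are named where called and above background on at least 2 arrays of a group. Between the tissues, only some of the pathway genes that met this rule are named, and these were picked after their values were seen. Tnfrsf11b in its uncalled genotype difference and the genes at background were named after their values were seen. The members and lists were chosen with earlier results of these data known. No label names a batch, a sex or an animal. Scaling, a filter on dim clusters, the spread estimate, the arrays fitted and the background level were varied. Symbols are those of the platform annotation and of RefSeq (GRCm38.p6).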

Additional observations from a re-analysis of the deposited data

How the results depend on the processing

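No paired analysis was possible because the labels give no replicate number or animal shared by the groups. Of 102 gene results recomputed 1827 times, 1738 kept their direction and their side of the threshold, 73 lost the call, 10 gained one and 6 changed sign. The calls in AF between genotypes were 1 of 45 genes, against 2 after quantile normalization, 2 of the 17 genes above background, 2 with array quality weights, 0 with the 6 AF arrays alone, and 0 to 2 when 1 array was left out. Of all 22206 clusters, 1347 were called there, against 1982 after quantile normalization and 2815 with array weights. The filter on dim clusters gave 1565 of 11508, the 6 AF arrays alone 3, and leaving 1 array out 81 to 4029. The interaction gave 0, against 1 after quantile normalization, 1 with the filter on dim clusters, 2 with array weights, and 0 to 1 when 1 array was left out. Over all clusters it gave 197 calls, against 195 after quantile normalization, 264 of 11508 with the filter and 875 with array weights. Leaving 1 array out gave 22 to 1319. With the filter, NP against AF gave 15 of 17 genes in each genotype, against 26 and 31 of 45 without it. Of the 11508 clusters that the filter kept, 8157 were called in TonEBP +/- mice and 9225 in WT mice. With the median of the background probe sets as the level, 27 genes were above background on all 3 arrays of a group in place of 17, and 13 with their maximum. As deposited, 26.9% of all calls between the tissues were higher in TonEBP +/- mice and 28.3% in WT mice, against 54.9% and 51.8% with medians subtracted, since the median cluster then differed by -0.75 and -0.84. In AF between genotypes, the share of higher calls was 55.9% with medians subtracted, against 45.4%.

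The sign turned for Fzd7 in NP between genotypes without NP TonEBP +/- array 3 (-0.09) or NP WT array 1 (-0.12), over a range of -0.12 to 0.26 when 1 array was left out, for Wnt10a in WT mice as deposited (-0.067), for Celsr3 in WT mice as deposited (-0.16) and after quantile normalization (-0.63), and for Gsk3b in TonEBP +/- mice after quantile normalization (-0.61); the cause was not tested. The Sfrp5 interaction passed after quantile normalization (adjusted p = 0.0457), with the filter (0.0487), with array weights (0.0354) and without NP TonEBP +/- array 3 (0.0496), NP WT array 1 (0.0474) or AF TonEBP +/- array 2 (0.0375). The Cd44 call in AF was lost in 4 of 18 alternatives and the Lgr6 call in 1, with adjusted p up to 0.105 and 0.102. Signals of 24 genes lay under the background level, where these arrays set no size.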

Other observations

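Among the protein-coding genes of RefSeq (GRCm38.p6), 4 pairs of the Wnt genes are direct neighbours: Wnt6 with Wnt10a on chromosome 1, Wnt3a with Wnt9a and Wnt9b with Wnt3 on chromosome 11, and Wnt10b with Wnt1 on chromosome 15. Wnt10a was above background on 6 of 12 arrays, with 3 of them in NP of TonEBP +/- mice, 2 in NP of WT mice, 1 in AF of TonEBP +/- mice and 0 in AF of WT mice, and the other genes of these pairs were above background on no array.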
